A study of Bos taurus with 15 samples.

Results

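The leukocytes of the cattle duodenum were compared between a newborn (NB) and an adult (AD) library. Cells were chosen by 2 genes of their own counts, PTPRC (CD45, the phosphatase carried by nearly all leukocytes) and EPCAM (an adhesion molecule of epithelial cells). Barcodes with 500 to 4000 genes, under 50000 unique molecular identifiers (UMIs), at least 1 UMI of PTPRC and 0 of EPCAM were kept. This gave 784 NB cells of 8484 within the gene and UMI limits and 7759 AD cells of 10380. Together they were 8543 of the 132361 barcodes within these limits in all 15 libraries, of which 53788 passed the same PTPRC and EPCAM gate.

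Both libraries came from Holstein dairy cattle whose duodenum was freed of its outer muscle, and no treatment or allele was named. All 4 AD intestinal tissues came from 1 lactating cow. The NB tissues were taken from 3 calves, and the labels do not name the calf behind the NB duodenum. The AD duodenum was digested with a lamina propria kit, and its cells were then treated with a red blood cell lysis solution. The NB duodenum was first treated with EDTA and trypsin and then with the kit, and no such lysis was described for it. The strainers also differed. Age, animal and dissociation therefore changed together, and their parts in any difference cannot be told apart. With 1 library per stage there was no replicate, so no test was made. Intervals are exact 95% ones and cover counting error only, by the Poisson distribution for summed UMIs and by the Clopper-Pearson method where a share of cells is given.

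The intestinal lamina propria holds macrophages that take up dying cells and luminal material, dendritic cells that carry antigen to lymph nodes, T cells that home to the gut after priming, and plasma cells that secrete dimeric IgA. Macrophages and innate lymphocytes are laid down before birth, whereas gut T cells and plasma cells build up after birth as microbes and food antigens arrive. Calves are born with very little serum antibody and take it up from colostrum.

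The cells carried the general leukocyte markers. All 9 leukocyte markers other than PTPRC were detected in both libraries, with summed levels of 4561 CPM (a gene's UMIs divided by all UMIs of the cells and scaled to 1e6) in NB cells, 5242 CPM in AD cells and 131 CPM in NB EPCAM+ barcodes. LAPTM5, a lysosomal membrane protein of blood cells, was at 1999 CPM in NB cells, 1380 CPM in AD cells and 28.4 CPM in NB EPCAM+ barcodes. CORO1A, which coats actin in leukocytes, was at 802 CPM in NB and 946 CPM in AD cells. At the edge of the gate, 251 NB and 1840 AD cells had a single PTPRC UMI, and their median was 6 of 9 other leukocyte markers with a UMI. Just outside it, the 3520 NB and 2388 AD barcodes with neither gene had a median of 1 and 4 of these markers. A further 104 NB and 149 AD barcodes had PTPRC and 1 UMI of EPCAM, with a median of 7 markers each. The PTPRC and EPCAM counts chose the cells and are a description, with PTPRC at 275 CPM in NB and 746 CPM in AD cells.

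Depth differed between the stages. The NB cells held 7654142 UMIs with a median of 9866 per cell, and the AD cells 34819784 with a median of 3752. The median share of mitochondrial UMIs was 3.02% in NB and 7.37% in AD cells. Of all barcodes, 36 occurred in both libraries (0.246% of the NB and 0.293% of the AD barcodes), and 2 of these were cells of both sets. Across the 15 libraries, the gate kept 8 to 9338 cells.

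The AD cells were mostly T-like and the NB cells mostly macrophage-like or dendritic-like. A UMI of CD3E, CD3D or CD3G, the signalling chains of the T cell receptor, was found in 6.76% of NB and 85.1% of AD cells. CD3E alone was found in 6.38% of NB cells at a median of 9866 UMIs, and in 0.273% of the 4025 NB EPCAM+ PTPRC- barcodes at a median of 10714. In the AD library it was found in 83% of cells at a median of 3752 UMIs, and in 28.0% of cells of the macrophage-like cluster at a median of 3719. After each cell was thinned to 1000 UMIs, the shares with CD3E were 4.36% of NB and 67.9% of AD cells. The thinned shares left the AD cells far above the NB cells and above the AD macrophage-like cells, at 18.8%.

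Each library was clustered by itself, and a cluster was named from a defining gene and further markers. The defining genes were CD3E (T-like), C1QA (macrophage-like), FLT3 (dendritic-like), CD79A (B-like), MZB1 (plasma-like) and CPA3 (mast-like). The share of cells with a defining gene within its own class is therefore a description. CD3E-high clusters, here called T-like although natural killer and innate lymphoid cells were not told apart from T cells, held 69 NB cells (8.80%, interval 6.91 to 11) and 6051 AD cells (78.0%, 77.0 to 78.9). Macrophage-like clusters held 308 NB cells (39.3%, 35.8 to 42.8) and 592 AD cells (7.63%, 7.05 to 8.24). Dendritic-like clusters held 236 NB cells (30.1%, 26.9 to 33.4) and 207 AD cells (2.67%, 2.32 to 3.05). The 3 intervals of each stage lay apart from those of the other. The NB macrophage-like share rested on the definition: it was 68.6% by a UMI of CSF1R, C1QA, C1QB or C1QC without CD3 genes, and 19.9% in cells with at least 2 UMIs of PTPRC. By the same UMIs the AD share was 6.43%, and with at least 2 UMIs of PTPRC it was 4.97%. C1QA, a chain of complement C1q, was also found in 16.1% of NB EPCAM+ barcodes at a median of 10714 UMIs, against 58.4% of NB cells. The NB T-like share was 1.15% when both libraries were clustered together.

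B-like cells, plasma-like cells and mast-like cells formed clusters in the AD library only. The B-like clusters held 566 AD cells (7.29%), the plasma-like cluster 298 (3.84%) and the mast-like cluster 14 (0.180%). No NB cluster was named as one of these kinds, which does not limit how many such cells were scattered among the others. A UMI of CPA3, a protease of mast cells, was found in 1.15% of NB and 0.258% of AD cells, at medians of 9866 and 3752 UMIs, and after thinning in 0.513% and 0.142%. In NB EPCAM+ barcodes it was found in 0.224%. MS4A1, the B cell protein CD20, was found in 14 NB cells (1.79%), all 14 of them in dendritic-like clusters. MZB1, a chaperone of antibody secretion, had no UMI in any of the 784 NB cells and was found in 95.3% of the AD plasma-like cells. CD79A, the signalling partner of the B cell receptor, was found in 1.66% of NB cells, in 86.7% of the AD B-like cells and in 2.58% of AD CD3E-high cells, at medians of 9866, 5592 and 3595 UMIs. MZB1 and CD79A served to name the plasma-like and B-like clusters, so their shares there are no further evidence for these names. Clusters left without a name held 171 NB cells (21.8%) and 31 AD cells (0.400%). The NB ones were 35 cells led by S100A12, FCN1, S100A9 and S100A8, genes of neutrophils and monocytes, 69 cells led in part by the stromal genes IGF2, CCL11 and COL4A1, and 38 and 29 shallow cells of which 92.1% and 96.6% had C1QA. In the cluster of 69 cells, 55.1% had the dendritic cell receptor FLT3, 71.0% FCER1A, a chain of the IgE receptor of mast and dendritic cells, and 8.70% CPA3. GZMB (ENSBTAG00000053015) and PTI were among the leading genes both of that cluster and of the AD mast-like cluster. The NB clusters of 69, 38 and 29 cells met the gene limits of a class but were left unnamed by further rules given below. With the clusters of 38 and 29 cells, the NB macrophage-like cells would number 375.

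**Figure D1:**
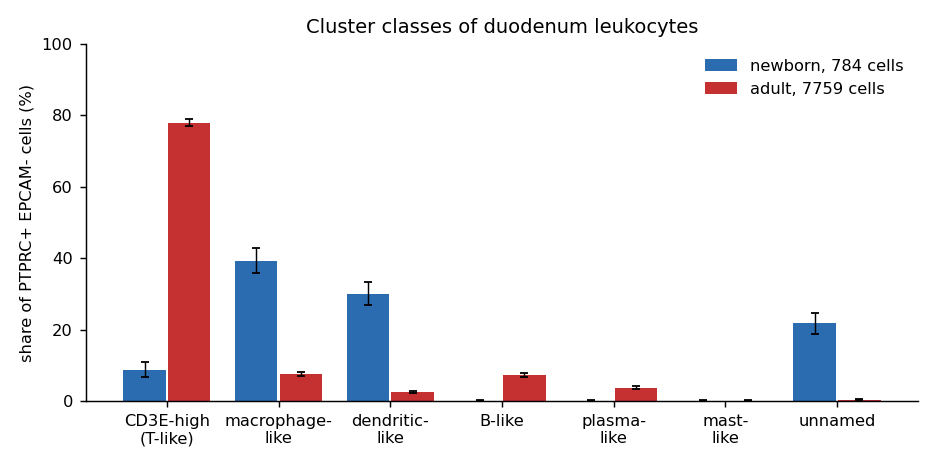
Share of PTPRC+ EPCAM- duodenum cells (y axis, %) in each cluster class (x axis) for the newborn (784 cells) and adult (7759 cells) libraries, with exact binomial 95% intervals that cover counting error only. CD3E-high cells make up 78.0% of the adult and 8.80% of the newborn cells, and macrophage-like and dendritic-like cells 39.3% and 30.1% of the newborn cells.

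UMIs were summed over the cells of each library and scaled to CPM. A gene was compared when it reached 10 CPM in either library, and it was counted as higher in one when log2 of (NB CPM + 5)/(AD CPM + 5) passed 2 in size and the Poisson intervals did not overlap. Of 7965 genes, 369 (4.63%) were higher in NB and 323 (4.06%) higher in AD cells, and the median log2 ratio was -0.21. The ratio of 5546 genes (69.6%) stayed within 2-fold. The same contrast defines the comparison, so these counts are a description. In summed counts, fewer cells of a type and less RNA per cell cannot be told apart. The added 5 CPM understates the change of low genes.

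**Figure D2:**
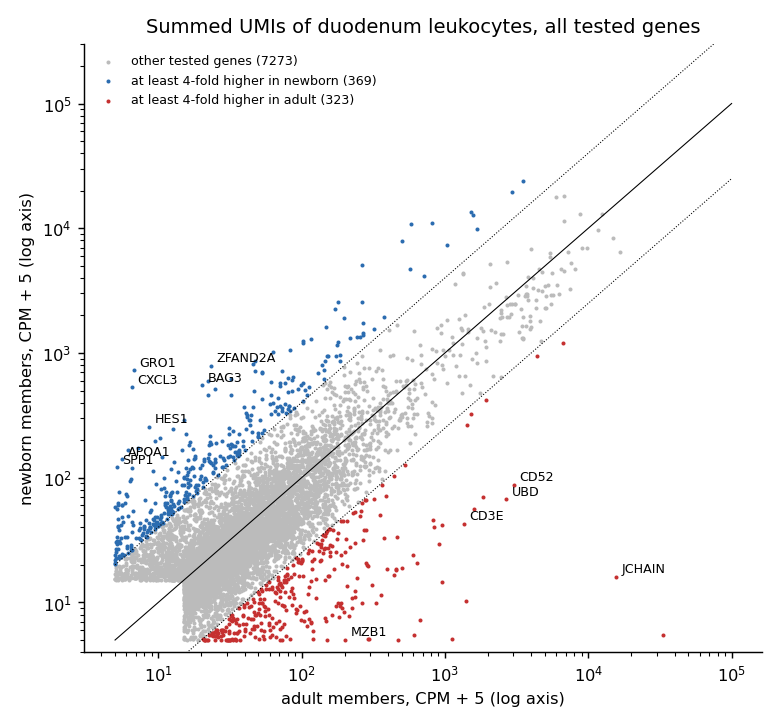
CPM + 5 of every compared gene in adult (x axis) and newborn (y axis) cells on log axes, with the solid line at equality and the dotted lines at 4-fold. The 369 genes higher in the newborn include GRO1, CXCL3 and ZFAND2A, and the 323 genes higher in the adult include JCHAIN at 15535 CPM.

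Genes of antibody secretion were among the AD-higher genes, and JCHAIN had the largest ratio of those with a symbol. JCHAIN, which joins IgA and IgM into polymers, was at 11.1 CPM (8.87 to 13.7) in NB and 15535 CPM (15493 to 15576) in AD cells. MZB1 was at 0 CPM in NB, with an upper bound of 0.482 CPM, and at 197 CPM in AD cells. POU2AF1, a coactivator of immunoglobulin genes, was at 0 and 65.5 CPM, and TNFRSF17, the survival receptor BCMA of plasma cells, at 0.131 and 49.9 CPM. Of 10 compared genes of the plasma cell list, 5 were higher in AD and none in NB cells, with a median log2 ratio of -2.22. The other 5 did not reach the 4-fold limit, among them PRDM1, the regulator BLIMP1, at 59.6 CPM in NB and 108 CPM in AD cells, which NB macrophage-like cells also carried, at 100 CPM. JCHAIN UMIs were not limited to plasma-like cells in the AD counts. At least 1 was seen in 86.1% of AD CD3E-high cells, 86.7% of macrophage-like cells and 83.6% of EPCAM+ barcodes. The JCHAIN level was 642 CPM in CD3E-high cells and 144702 CPM in plasma-like cells. The part of free RNA in the values outside plasma-like cells was not tested. AD barcodes with neither PTPRC nor EPCAM had JCHAIN at 96365 CPM and MZB1 at 965 CPM. The AD EPCAM+ barcodes had JCHAIN at 50479 CPM, and 24.6% of them had a UMI of MZB1. The AD plasma-like share and the JCHAIN level of AD cells therefore describe PTPRC+ EPCAM- cells only.

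B cell genes were lower in NB cells. VPREB3, a B-lineage chaperone, had 1 UMI in all NB cells (0.131 CPM) and 285 CPM in AD cells. MS4A1 was at 2.74 CPM in NB and 210 CPM in AD cells. CD79A was at 1.70 and 70.6 CPM, and CD79B at 0 and 68.4 CPM. Of 11 compared genes of the B cell list, 6 were higher in AD and none in NB cells, with a median log2 ratio of -2.12. Genes listed only by an Ensembl identifier made up 62 of the AD-higher and 21 of the NB-higher genes, and none could be matched to a symbol. Some had larger AD ratios than most genes with a symbol. ENSBTAG00000047700, with a larger ratio than JCHAIN, was at 0.523 CPM in NB and 33008 CPM in AD cells, and ENSBTAG00000047121 at 0.131 and 1110.5 CPM. In the other direction, ENSBTAG00000013919 was at 23948 and 3522.5 CPM.

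Genes of the T cell receptor and its signalling were higher in AD cells for 16 of 17 compared genes, with a median log2 ratio of -4.24. CD3E was at 37.9 CPM (33.7 to 42.5) in NB and 1355 CPM (1343 to 1367) in AD cells. CD3D was at 11.6 and 437 CPM. LAT, the adaptor phosphorylated after receptor engagement, was at 4.05 and 219 CPM. The exception was CD2, an adhesion receptor, at 178 CPM in NB and 195 CPM in AD cells, and in NB cells it was highest in macrophage-like cells, at 337 CPM. All 7 compared GIMAP genes, GTPases of lymphocyte survival, were higher in AD cells. The most abundant, GIMAP7 (ENSBTAG00000008550), was at 24.6 CPM in NB and 908 CPM in AD cells. The GIMAP7 identifiers are near copies of one another, so reads may be split between them.

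All 4 compared coreceptor and gamma-delta T cell genes were higher in AD cells. CD8A was at 4.31 CPM in NB and 168 CPM in AD cells, and CD4 at 14.6 and 204 CPM. Of the 73 NB cells with a UMI of CD4, 63 were macrophage-like and 2 CD3E-high. AD macrophage-like cells carried CD4 at 163 CPM, beside 278 CPM in AD CD3E-high cells. CCR9, the receptor that guides lymphocytes to the small intestine, was at 4.83 and 257 CPM, and CXCR6, a receptor of resident T cells, at 8.62 and 204 CPM. Of 11 gut homing and residency genes, 3 were higher in AD and none in NB cells. ITGAE, the integrin that holds lymphocytes in the epithelium, was at 21.8 and 20.4 CPM. Of 13 cytotoxic granule genes, 6 were higher in AD cells, such as CCL5, a chemokine of effector T cells, at 64.5 and 1828 CPM, and GZMA, a granule protease, at 1.18 and 65.4 CPM. Also among the largest were CD52, a small surface glycoprotein of lymphocytes, at 83.2 CPM in NB and 3030 CPM in AD cells, and UBD, a ubiquitin-like protein, at 62.2 and 2683 CPM.

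Macrophage genes were higher in NB cells. Of 21 compared genes of the tissue macrophage list, 17 were higher in NB and none in AD cells, with a median log2 ratio of 2.73. C1QA was at 11043 CPM in NB and 802 CPM in AD cells, and APOE, the lipid carrier of macrophages, at 10873 and 580 CPM. CSF1R, the receptor on which macrophages depend, was at 577 and 56.5 CPM, and CD163, the scavenger receptor for hemoglobin, at 88.3 and 1.32 CPM. Class II antigen presentation followed, with 7 of 14 genes higher in NB and none in AD cells. BOLA-DRA, the alpha chain of the class II molecule DR, was at 19433 CPM in NB and 2932 CPM in AD cells, whereas CD74, the invariant chain, was at 17671 and 5920 CPM and below the 4-fold limit. Of 21 lysosome and iron genes, 13 were higher in NB cells, such as CTSH, a cathepsin, at 2537 and 257 CPM, and FTH1, the ferritin heavy chain, at 9875 and 1681 CPM. None was higher in AD cells.

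Chemokines that attract neutrophils headed the NB-higher genes. GRO1, a CXC chemokine, was at 721 CPM (702 to 740) in NB and 1.81 CPM (1.39 to 2.31) in AD cells. CXCL3 was at 525 and 1.52 CPM, and CXCL8 at 456 and 17.1 CPM. IL1A, an alarm cytokine, was at 163 and 1.12 CPM, and TNF at 601 and 80.6 CPM. Of 25 inflammatory cytokine and chemokine genes, 13 were higher in NB cells. The 2 higher in AD cells were CCL5 and CXCL9, an interferon-induced chemokine for T cells, at 0.261 CPM in NB and 42.0 CPM in AD cells. Of 10 compared monocyte and neutrophil genes, 7 were higher in NB and none in AD cells, and the whole list summed to 1155 CPM in NB and 185 CPM in AD cells. S100A12, a calcium-binding protein of neutrophils, was at 43.2 and 0.574 CPM and FCN1, a monocyte lectin, at 35.9 and 0.258 CPM.

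The other NB-higher genes with the largest ratios were of several kinds. ZFAND2A and BAG3, both induced by heat shock factor, were at 784 and 545 CPM in NB and at 18.5 and 15.3 CPM in AD cells. HES1, a target of Notch signalling, was at 252 and 3.62 CPM, and KLF4, a transcription factor of myeloid and epithelial cells, at 168 and 2.27 CPM. ALOX5AP, needed for leukotriene synthesis, was at 192 and 4.42 CPM, and PLA2G2D4, of the secreted phospholipase family, at 589 and 17.1 CPM. SPP1, the secreted protein osteopontin, was at 116 and 0.144 CPM, and its log2 ratio fell from 4.56 to 1.37 when the cells with the highest doublet scores were left out. It was the sole one of these 24 genes that lost its call under any setting tried. Of 4 compared genes of growth before birth, 2 were higher in NB and none in AD cells. IGF2, a fetal growth factor, was at 55.9 and 0.603 CPM, and IGF2BP3, an RNA-binding protein of fetal tissue, at 61.4 and 3.04 CPM. IGF2 was among the leading genes of the unnamed NB cluster of 69 cells that was led in part by stromal genes.

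**Figure D3:**
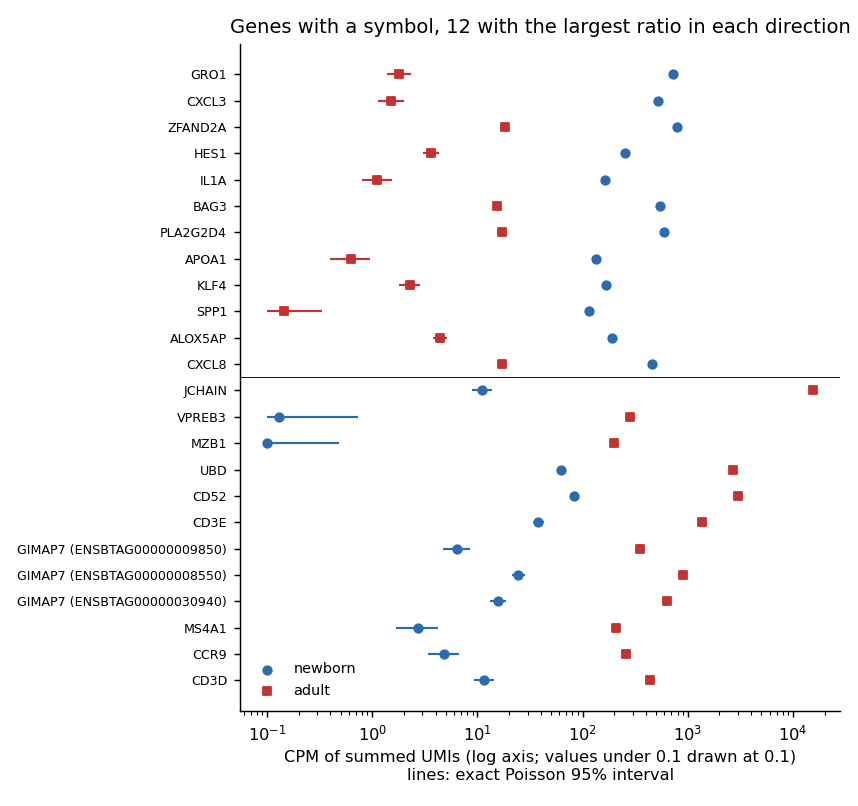
CPM on a log axis of the 12 genes with a symbol that had the largest ratio in each direction, genes known only by an identifier being left out, for newborn (circles) and adult (squares) cells, with exact Poisson 95% intervals as lines. The upper 12 genes run from 116 to 784 CPM in the newborn, and the lower 12 from 0 to 83.2 CPM in the newborn against 197 to 15535 CPM in the adult.

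Several lists held few or no counted genes. None of 14 class I genes, of 21 proliferation genes or of 21 nuclear genes of oxidative phosphorylation was counted in either direction. B2M, the light chain of class I, was at 6954 CPM in NB and 9810 CPM in AD cells. JSP, a class I heavy chain gene that is not in the list, was counted as higher in AD cells, at 936 and 4381 CPM, and reads of near copies in that family may be split. MKI67, a marker of dividing cells, was at 55.7 and 42.4 CPM. Of 16 interferon-stimulated genes, only OAS1Y, an antiviral enzyme, was higher in NB cells, at 29.9 and 2.70 CPM, and none was higher in AD cells. Of 79 ribosomal protein genes, 3 were higher in AD cells and none in NB cells. Of the 13 compared mitochondrial genes, 2 were higher in AD cells, with a list median of -0.71 and summed levels of 37382 CPM in NB and 69025 CPM in AD cells.

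Enterocyte genes were also counted among the NB-higher genes, 10 of 15 compared. FABP1, the fatty acid carrier of absorptive cells, was at 452 CPM in NB and 27.3 CPM in AD cells. APOA1, an apolipoprotein, was at 135 and 0.632 CPM, and S100G, the calcium carrier calbindin, at 285 and 10.2 CPM. In NB EPCAM+ barcodes these 3 genes were at 24138, 6308 and 17137 CPM. Over 10 such genes, the level in the NB leukocytes was 0.731% to 3.58% of that in EPCAM+ barcodes, with a median of 1.58%. Within the 3 NB classes the medians were 2.55% in CD3E-high, 1.2% in macrophage-like and 1.34% in dendritic-like cells. FABP1 was seen in 94.1% of NB leukocytes and 97.8% of EPCAM+ barcodes, and after thinning in 32.1% and 77.2%. The NB library held 4025 EPCAM+ PTPRC- barcodes and the AD library 61, and the part of their RNA in these values was not tested. Summed over whole marker lists, the 18 epithelial genes were at 913 CPM in NB and 77.5 CPM in AD cells, the 14 endothelial genes at 205 and 19 CPM, the 11 fibroblast genes at 94.3 and 26.7 CPM and the 10 erythroid genes at 20.8 and 98.2 CPM.

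The comparison was repeated within each class that had at least 50 cells in both libraries, because the classes were mixed in different proportions. Within macrophage-like cells, of 7425 genes 61 (0.822%) were higher in NB and 131 (1.76%) higher in AD cells, and 89.4% stayed within 2-fold. Another scaling, edgeR's TMM, moved the median of all genes in these cells from -0.19 to 0.00177 and gave 73 and 117 genes. With the class chosen by UMIs in place of clusters the balance turned, to 99 genes higher in NB and 69 higher in AD cells. These cells came from 3 NB clusters, one of them led by SPP1 and one with GRO1 and CXCL10 among its leading genes, and from 1 AD cluster. Of 22 tissue macrophage genes, 1 was higher in each stage and 14 stayed within 2-fold. After cells were thinned to 1000 UMIs, 1 was higher in NB and none in AD cells, against 1.2% and 1.6% of all genes. CD163 was at 175 CPM in NB and 14.3 CPM in AD cells. GPNMB, a lysosomal glycoprotein of lipid-laden macrophages, was at 40.9 and 227 CPM. C1QA was at 22657 and 9797 CPM, MRC1, the mannose receptor, at 251 and 252 CPM, and TIMD4, a receptor for dying cells, at 1142 and 796 CPM. None of 14 class II genes was counted in either direction, and CD74 was at 25260 CPM in NB and 46786 CPM in AD macrophage-like cells.

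Of 23 compared inflammatory cytokine and chemokine genes, 8 were higher in NB and 3 in AD macrophage-like cells, with a median log2 ratio of 1.62. GRO1 was at 1002 CPM in NB and 21.8 CPM in AD cells, CXCL3 at 785 and 19 CPM, and PTGS2, the inducible cyclooxygenase, at 60.8 and 1.79 CPM. CCL2, which attracts monocytes, was at 92.5 and 12.9 CPM. The 3 higher in AD cells were CCL5, CXCL9 and CXCL10. CCL5 was at 20.3 and 428 CPM, and at 2616 CPM in AD CD3E-high cells. CXCL9 was at 0.298 CPM (1 UMI) in NB and 435 CPM in AD macrophage-like cells, and was seen in 9.63% of the latter and in 0.198% of AD CD3E-high cells. CXCL10 was at 28.0 and 156 CPM, although it was among the leading genes of an NB cluster. Both are induced by interferon, whose part in these values was not tested. Of 13 compared interferon-stimulated genes, 1 was higher in NB and none in AD macrophage-like cells. Other macrophage-like genes higher in AD were IL7R, a cytokine receptor of T cells that AD CD3E-high cells carried at 1119 CPM, at 50.1 and 617 CPM, IRF8, a factor of mononuclear phagocytes, at 18.5 and 141 CPM, and JSP at 843 and 4667 CPM, beside 5387 CPM in AD CD3E-high cells. Higher in NB were NRP1, a semaphorin receptor, at 84.4 and 0.716 CPM, and SLC11A1, the metal pump of phagosomes, at 71.0 and 6.80 CPM.

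Most other AD-higher genes of the macrophage-like cells were genes of T cells. Of the 131, 112 were at least 2-fold higher in another group of the AD library, 96 of them in CD3E-high cells. CD3E was at 392 CPM in AD macrophage-like, 198 CPM in dendritic-like and 1934 CPM in CD3E-high cells, and CD52 at 784, 406 and 4190 CPM. Over 22 T cell genes, the level in AD macrophage-like cells was a median of 21.1% of that in CD3E-high cells. The median was 10.5% in dendritic-like, 15.1% in B-like and 12.9% in plasma-like cells. Of the 61 NB-higher genes, 31 were higher in another group of the NB library, 13 of them in EPCAM+ barcodes. In the gate on UMIs, 7.85% of AD and 1.91% of NB cells carried both CD3 and macrophage genes. The part of free RNA and of doublets in these values was not tested.

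**Figure D4:**
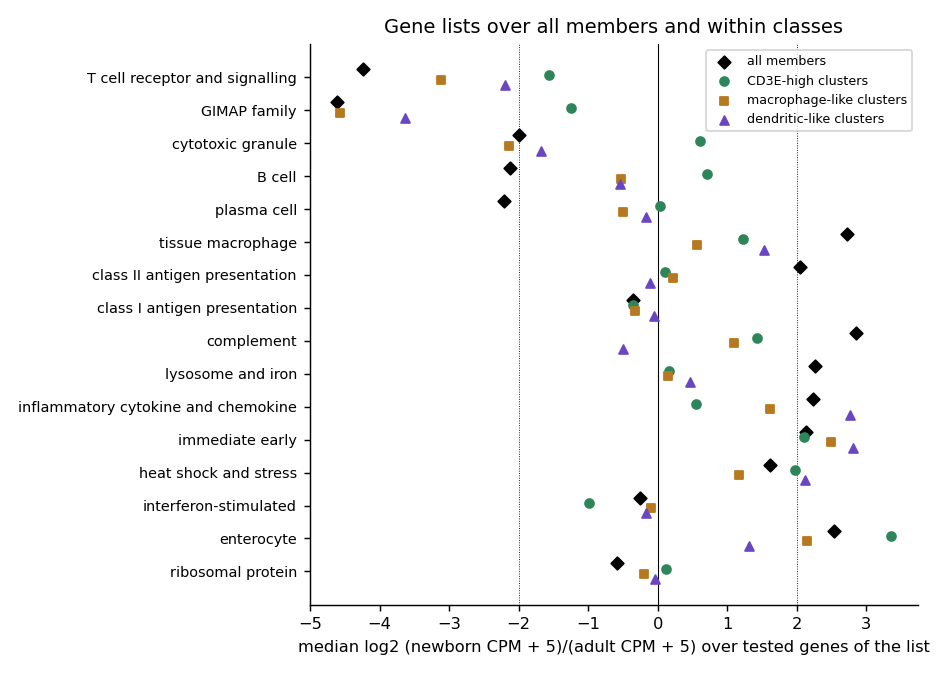
Median log2 of (newborn CPM + 5)/(adult CPM + 5) over the compared genes of 16 lists (x axis; lists on the y axis), for all cells and within the 3 classes, with dotted lines at a 4-fold ratio. Tissue macrophage genes have a median of 2.73 over all cells and 0.56 within macrophage-like clusters, while immediate early genes lie at 2.14 over all cells and between 2.10 and 2.81 within the classes.

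Immediate early genes were higher in NB cells over all cells and within the classes. These genes, transcription factors such as FOS, JUN and EGR1 and their feedback regulators, are switched on within minutes of stimulation or stress, including the handling of tissue. Over all cells 10 of 20 were higher in NB and none in AD cells. Within macrophage-like cells it was 14 of 20, within dendritic-like cells 17 of 21 and within CD3E-high cells 12 of 21, and none was higher in AD cells of any of the 3. Without the CD3E-high NB cluster that had IL22 among its leading genes, it was 7 of 19 in that class, against 2.35% of all genes. An AD CD3E-high cluster of 983 cells (12.7% of AD cells) was led by ATF3, DUSP1, HSPH1 and FOS, with HSPA6, DNAJB1 and FOSB also among its leading genes. EGR1 was at 806 CPM in NB and 23.6 CPM in AD macrophage-like cells, at 1434 and 79.1 CPM in dendritic-like cells and at 524 and 56.4 CPM in CD3E-high cells. PPP1R15A, which reverses the stress block of translation, was at 827 and 46.2 CPM in macrophage-like cells, 1919 and 66.9 CPM in dendritic-like cells and 521 and 121 CPM in CD3E-high cells. KLF6, in contrast, was at 487 and 601 CPM, 762 and 757 CPM, and 1506 and 1670 CPM in these classes.

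Heat shock genes behaved alike in part. Over all cells only BAG3 of 16 was higher in NB cells, with a list median of 1.62. Within the classes 3 (macrophage-like), 9 (dendritic-like) and 8 (CD3E-high) of 16 were, or 5 of 16 in CD3E-high cells without the same cluster. With macrophage-like cells chosen by UMIs in place of clusters, it was 7 of 16, beside 99 of 7337 genes. DNAJB1, a cochaperone, was at 1117 CPM in NB and 198 CPM in AD macrophage-like cells, at 1978 and 231 CPM in dendritic-like cells and at 2752 and 520 CPM in CD3E-high cells. None was higher in AD cells. The dissociation differed between the stages, and its part in these 2 lists was not tested.

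**Figure D5:**
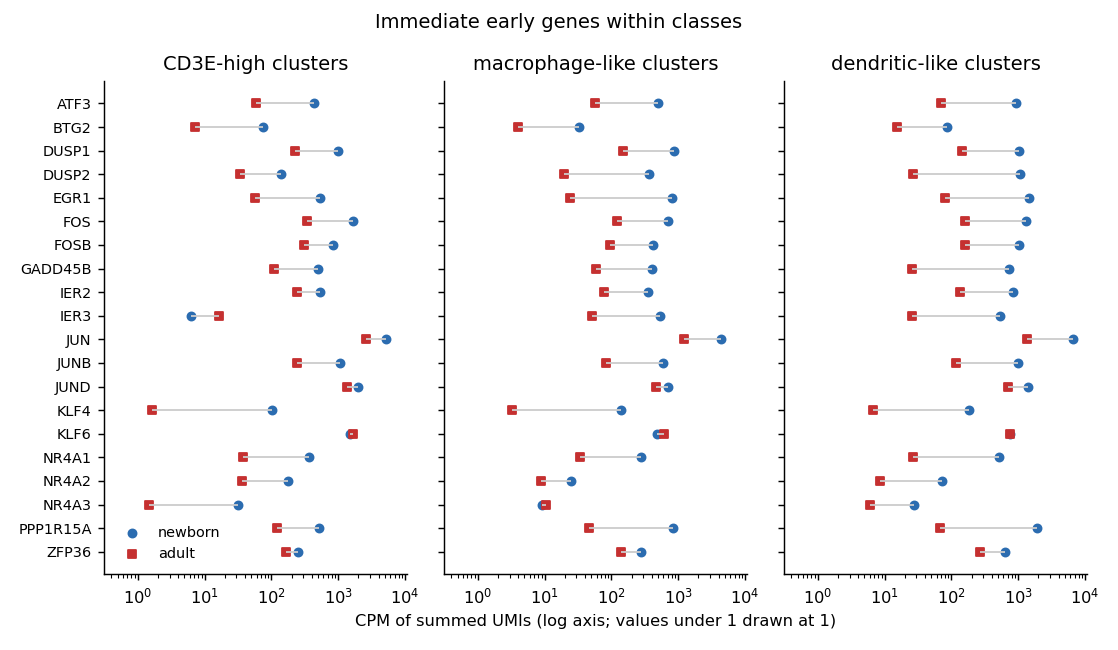
CPM on a log axis of 20 immediate early genes (y axis) in newborn (circles) and adult (squares) CD3E-high, macrophage-like and dendritic-like clusters, with values under 1 drawn at 1. EGR1 lies at 524, 806 and 1434 CPM in the newborn and at 56.4, 23.6 and 79.1 CPM in the adult classes, while KLF6 nearly coincides.

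Within dendritic-like cells, of 7474 genes 171 (2.29%) were higher in NB and 85 (1.14%) higher in AD cells. TMM scaling moved their median from -0.28 to 0.01 and gave 205 and 61 genes. Different clusters held the class: 115 NB cells led by CLEC9A, 43 dividing NB cells and 78 NB cells with FCER1A among their leading genes, against 1 AD cluster led by FCER1A. CLEC9A, a receptor of cross-presenting dendritic cells for dead cells, was at 249 CPM in NB and 30.7 CPM in AD cells. FCER1A was at 168 and 685 CPM. CX3CR1, the fractalkine receptor, was at 31.2 and 279 CPM, and CCL17, a chemokine for T cells, at 11.5 and 125 CPM. Proliferation genes were higher in NB cells for 15 of 23, such as MKI67 at 144 and 1.23 CPM, and for 8 of 22 after cells were thinned to 1000 UMIs, against 1.58% of all genes. When only the NB cluster with FCER1A among its leading genes and the AD cluster were compared, a choice made after seeing the data, 1 of 14 proliferation genes was higher in NB cells, CLEC9A was at 0 CPM in NB and 30.7 CPM in AD cells, and FCER1A at 473 and 685 CPM. CCL17 was at 33.6 and 125 CPM there and below the 4-fold limit.

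In that comparison, 120 of 7384 genes (1.63%) were higher in NB and 113 (1.53%) higher in AD cells. Immediate early genes were higher in NB for 17 of 21 and in AD for none. Of 20 inflammatory genes, 11 were higher in NB and 2 in AD cells, CXCL9 at 0 and 135 CPM and CCL5 at 17.5 and 229 CPM. Both were higher in another group of the AD library, CXCL9 at 435 CPM in macrophage-like and CCL5 at 2616 CPM in CD3E-high cells. GRO1 was at 673 CPM in NB and 0 CPM in AD cells, with an AD upper bound of 2.26 CPM. IL1A was at 361 and 0.614 CPM, TNF at 394 and 17.8 CPM, and CD83, a maturation marker of dendritic cells, at 1974 and 63.2 CPM. Higher in AD cells of these clusters were LGALS1, a galectin, at 19 and 502 CPM, and DNASE1L3, an extracellular nuclease, at 14.6 and 258 CPM. Neither was counted over the whole class, and DNASE1L3 was among the leading genes of the AD macrophage-like cluster. Class II genes were counted in neither direction, with 0 of 14. Of the 85 AD-higher genes of the whole class, 61 were at least 2-fold higher in another group of the AD library, 49 of them in CD3E-high cells. Of the 171 NB-higher genes of the whole class, 36 were higher in another group of the NB library, 16 in macrophage-like cells and 11 in EPCAM+ barcodes. Among 13 tissue macrophage genes, 5 were higher in NB cells of the whole class, beside 171 of 7474 genes, and none in AD cells.

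Within CD3E-high cells, 237 of 7531 genes (3.15%) were higher in NB and 173 (2.3%) higher in AD cells. After cells were thinned to 1000 UMIs, 112 were higher in AD cells, and without the NB cluster that had IL22 among its leading genes the balance turned, to 178 higher in NB and 198 in AD cells. The NB side rested on 69 cells and 318688 UMIs, the AD side on 6051 cells and 22804376 UMIs. The NB cells came from a cluster of 39 cells led by CD7 and KLRJ1 and one of 30 cells with IL22 among its leading genes. CD3E was found in 65.2% of NB and 98.6% of AD cells of the class, at medians of 4322 and 3595 UMIs. CD3E was at 879 and 1934 CPM, below the 4-fold limit, as were 14 of the 17 T cell receptor and signalling genes. The 3 higher in AD cells were CD5, an inhibitory coreceptor, at 25.1 and 267 CPM, LAT at 62.8 and 310 CPM, and CD27, a costimulatory receptor, at 22 and 115 CPM.

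Some cytokine, receptor and protease genes from several lists were higher in the NB cells of this class. Of 11 compared genes of the type 17 and innate lymphocyte list, 3 were higher in NB and 1 in AD cells. IL22, a cytokine of epithelial defense, was at 210 and 14.3 CPM, and IL17F at 119 and 2.72 CPM. The following genes were picked singly from the helper, mast cell, regulatory T cell and cytotoxic granule lists. IL13, of type 2 immunity, was at 81.6 and 0.482 CPM. KIT, a receptor of innate lymphocytes and mast cells, was at 188 and 18.7 CPM, and TNFRSF18, the costimulatory receptor GITR, at 395 and 47.8 CPM. CTSW, a cathepsin of killer lymphocytes, was at 722 and 147 CPM.

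Some T cell genes were higher in AD CD3E-high cells, where 173 of all 7531 compared genes (2.3%) were higher in AD. Of 4 compared coreceptor and gamma-delta T cell genes 2 were higher in AD, as were 2 of 7 naive and lymph node homing genes and 2 of 11 gut homing and residency genes, and none of these was higher in NB cells. Of 9 compared type 1 and type 2 helper genes, 1 was higher in NB and none in AD cells, with a median log2 ratio of -0.37. CD4, the coreceptor of helper T cells, was at 9.41 CPM (3 UMIs) in NB and 278 CPM in AD cells, and CD40LG, the helper ligand for B cells, at 6.28 CPM (2 UMIs) and 106 CPM. CTLA4, an inhibitory receptor, had no UMI in NB cells, with an upper bound of 11.6 CPM, and was at 43.9 CPM in AD cells. Outside this class, NB macrophage-like cells had CTLA4 at 93.1 CPM. Over all cells it was at 45.9 CPM in NB and 33.3 CPM in AD cells. Within CD3E-high cells, CCR9 was at 43.9 CPM in NB and 348 CPM in AD cells. IL6R, the interleukin 6 receptor, had no UMI in NB cells and 136 CPM in AD cells of the class. In macrophage-like cells it was at 333 CPM in NB and 415.5 CPM in AD, and in dendritic-like cells at 208 and 490 CPM. Over all cells IL6R was at 273 CPM in NB and 159 CPM in AD cells. CD8A was at 50.2 CPM in NB and 241 CPM in AD CD3E-high cells. CD8B, the other chain of that coreceptor, was at 47.1 and 141 CPM there and below the limit. Enterocyte genes were among the NB-higher genes here too, 13 of 15, as were 4 of 6 endothelial genes, with a summed list level of 276 CPM in NB and 16.7 CPM in AD cells, and 3 of 9 tissue macrophage genes. Of the 237 NB-higher genes, 111 were at least 2-fold higher in another group of the NB library. For 45 of them the highest such group was the EPCAM+ barcodes, for 37 the barcodes with neither PTPRC nor EPCAM, for 20 the dendritic-like and for 9 the macrophage-like cells. CRABP1, a carrier of retinoic acid that was not higher in another NB group, was at 308 CPM in NB and had no UMI in AD cells of the class, though it led an unnamed AD cluster of 31 cells with KIT.

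The same gate was applied to the 3 other tissues with both stages, which share the AD cow. A CD3 UMI was found in 5.52% of NB and 52.3% of AD cells of the jejunum. The cecum had 25% and 93.8%, and the colon 36.0% and 95.2%. In jejunum (2646 NB and 7013 AD cells), 161 genes (2.09%) were higher in NB and 167 (2.16%) in AD cells. In cecum (2402 and 7519 cells) the numbers were 480 (6.18%) and 191 (2.46%), and in colon (1573 and 7525 cells) 231 (2.97%) and 165 (2.12%). CD3E was at 21.6 CPM in NB and 796 CPM in AD cells of jejunum, at 147 and 2401 CPM in cecum and at 400 and 2529 CPM in colon. GRO1 reached 1535 CPM in NB jejunum against 23.7 CPM in AD, 752 against 13.8 CPM in cecum and 255 against 16.9 CPM in colon. For both genes the direction was that of the duodenum in each tissue.

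Macrophage genes were also set side by side, with no test between tissues. C1QA was at 9370.4 CPM in NB and 4704 CPM in AD cells of jejunum, whereas cecum had 2387 and 384 CPM and colon 1074 and 466 CPM. Of the tissue macrophage list, 5 of 22, 14 of 20 and 3 of 18 genes were higher in NB cells of jejunum, cecum and colon, beside 17 of 21 in duodenum. JCHAIN was at 10.6 and 5325 CPM in jejunum, but at 1699.8 and 4402 CPM in cecum and 1405 and 4131 CPM in colon. CCR9 was at 5.37 and 59.2 CPM in jejunum, 7.74 and 21.4 CPM in cecum, and 17.6 and 8.70 CPM in colon. Immediate early genes were higher in NB cells for 12 of 21 in jejunum, 11 of 21 in cecum and 5 of 20 in colon, and 1 was higher in AD cells of colon. The AD duodenum and cecum were digested with the same kit and the AD jejunum and colon with another, so tissue and kit cannot be told apart where duodenum is set beside jejunum or colon.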

How the data were processed

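The deposited files were 10x Genomics matrices of UMI counts per gene and barcode, 1 per tissue and stage, which the authors made with Cell Ranger 3.1.0 (version from the submitters' processing notes) on the ARS-UCD1.2 assembly named in the study's methods. The annotation release is not given in the sources used here, and how reads of near copies were shared is not stated. The counts were not normalized and 0 columns belonged to another series. Of 27270 gene rows, 7540 carried only an Ensembl identifier, and 0 of these matched the RefSeq gene table.

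Counts were read with scanpy 1.11.5 and summed over the chosen cells, then divided by their total to give CPM. Library totals were 117505536 UMIs (NB) and 49390566 (AD). Each library was clustered by itself on 2000 variable genes, 30 principal components and 20 neighbors (leidenalg 0.10.2, resolution 1). A cluster was named when its defining gene was in 50% of cells and at least 3 markers in 10%, limits set after the data were seen. Doublets were not removed, and leaving out the highest Scrublet scores, 7.65% of NB and 9.29% of AD cells, was an alternative. Scripts were tested on simulated data. TMM factors came from edgeR 4.0.16 (R 4.3.3).

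The cells, gene lists and markers were chosen with earlier results of these data known. Genes named were those of the lists that differed or were most abundant, the 12 symbols with the largest ratio in each direction and the 6 within a class, plus those not at least 2-fold higher in another group. List members that did not differ and genes of the dendritic-like clusters with FCER1A among their leading genes were named after their values were seen. Some genes that this rule picks are not reported here. The other libraries gave cell counts, and those of jejunum, cecum and colon the values set beside the duodenum.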

Additional observations from a re-analysis of the deposited data

Results flagged for a closer look

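Some B cell genes ran in opposite directions in colon and duodenum, each from 1 library per stage, and the difference was not tested. The genes named here were picked for that opposite direction. Over the whole B cell list, 9 of 12 compared genes were higher in NB and none in AD cells of the colon. In the other tissues the AD-higher genes were more, 6 of 11 in duodenum and 4 of 11 in cecum with none higher in NB cells, and 3 of 7 in jejunum with 1 higher in NB cells. In colon the log2 ratio of NB over AD was 2.57 for CD79A and 3.37 for CD79B, the signalling chains of the B cell receptor, against -3.50 and -3.87 in duodenum. MS4A1 was at 2.10 in colon and -4.79 in duodenum, and VPREB3 at 2.56 and -5.82. CR2, the complement receptor of B cells, was at 2.36 and -2.67, FCRLA, an Fc receptor-like protein of B cells, at 3.40 and -2.12, and POU2AF1 at 2.75 and -3.82. In CPM, MS4A1 was at 245 in NB and 53.2 in AD colon, and at 2.74 and 210 in NB and AD duodenum. Both tissues share the AD cow, and their AD samples were digested with different kits.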

How the results depend on the processing

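No paired analysis was possible because the labels give 1 library for every combination of tissue and stage, and for the same reason none could be left out. Depth, age, animal and dissociation differed together between the stages. Among counts and shares, 68 values stayed and 26 moved beyond their limit. With a pseudocount of 1 CPM, 625 genes were higher in NB and 506 in AD cells, and with 20 CPM, 156 and 112. The NB T-like share was 6.57% with at least 2 UMIs of PTPRC, 1.15% when both libraries were clustered together and 6.76% by a CD3 UMI. The NB macrophage-like share was 45.4% without the highest Scrublet scores, 19.9% with at least 2 UMIs of PTPRC, 35.7% with no upper limit on genes or UMIs, 33.8% without cells holding COL1A2, PECAM1 or KRT8, 47.8% and 33.4% at Leiden resolutions of 0.5 and 2, 46.2% with joint clustering and 68.6% by UMIs. The AD T-like share was 81.0% without the highest Scrublet scores, 82.1% with at least 2 UMIs of PTPRC, 80.0% at resolution 2 and 85.1% by UMIs, and the AD macrophage-like share 6.52%, 4.97%, 5.92% and 6.43%. Within CD3E-high cells, 112 genes were higher in AD after thinning to 1000 UMIs. Within macrophage-like cells chosen by UMIs, 99 were higher in NB and 69 in AD. The cause of these shifts was not tested.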
